A study of Homo sapiens with 12 samples.

Results

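The TGF-β and BMP genes described here are 10 genes chosen by name, all of which were among the 17013 genes of the processed mRNA-seq table. They are 3 ligands of the TGF-β and activin class (TGFB1, TGFB2 and INHBA), 2 BMP ligands (BMP2 and BMP4), the secreted BMP antagonist GREM1, the inhibitory SMAD SMAD7 and the target genes ID1, ID2 and ID3. They were measured in HCC1806, an established triple-negative breast cancer (TNBC) cell line, in 4 groups of 3 libraries. The cells had been given either a control siRNA without a target (siNT) or a pool of 4 siRNAs against the kinase MLK4 (siMLK4), and then received vehicle (DMSO) or 1 μM doxorubicin, a topoisomerase II poison, for 24 h. The siMLK4 pool was given as 1 mixture, and no library holds its siRNAs singly. The labels name DMSO for the vehicle samples, while the study's methods describe them as left without drug, and they are called vehicle or untreated here. The labels also mark them as time 0, and a shared harvest with the treated cells was not tested. The libraries held 16759025 to 19302248 reads assigned to genes, and nothing in the labels says that replicates came from separate cultures, and the study's methods say that the transfections were made in triplicate, so p-values measure the spread between these transfections.

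Ligands of the TGF-β family bind pairs of serine/threonine kinase receptors, which phosphorylate SMAD proteins that then enter the nucleus and bind DNA. TGF-β and activin class ligands act mainly through one set of receptor SMADs and BMPs through another, and SMAD7 feeds back on both. The ID genes are classical BMP targets, whose helix-loop-helix proteins bind E proteins and keep them off DNA, while GREM1 captures BMPs outside the cell. In breast epithelium and in carcinomas the pathway is known for restraining proliferation and for epithelial plasticity.

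MLK4 itself was read first as a check of the labels. MAP3K21, its gene (ENSG00000143674), had 553.1, 669.6 and 673.6 normalized reads (reads divided by the library's size factor) in untreated siNT cells and 757.6, 856.1 and 771.6 in treated ones. After knock-down it had 103.2, 94.7 and 88.7 without drug and 112.8, 138.4 and 94.4 with it. No siMLK4 library reached any siNT library, and the mean stood at 15.1% of siNT with vehicle and 14.5% with doxorubicin.

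The siRNAs are shown because every siMLK4 comparison below rests on them. All 4 match the MAP3K21 transcript over 19 bases. The capitals mark the 7 bases that a transcript must share with the siRNA to pair with the seed of its guide strand.

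siRNA 3 of the siMLK4 pool: agaagaaacgaGAGGGAAuuu

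siRNA 1 of the siMLK4 pool: ggaaagaugcuCAGAGAGauu

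siRNA 4 of the siMLK4 pool: agaacagauugCAAAGAAauu

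siRNA 2 of the siMLK4 pool: aggagaagcccAAGGUAAauu

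The identity of the cells was checked on marker lists. All 8 basal or squamous epithelial markers were in the table, with KRT5 the most abundant, and their sum was 73915 normalized reads in siNT vehicle, 41359 in siNT doxorubicin, 68088 in siMLK4 vehicle and 29442 in siMLK4 doxorubicin. KRT5, KRT14, KRT6A, TP63 and EGFR fell with doxorubicin after either siRNA, and KRT17, CDH1 and EPCAM were not called. Between siRNAs KRT14 (−1.05 with vehicle and −1.26 with doxorubicin) and KRT6A (−1.19 and −1.03) fell in siMLK4 cells, as did KRT17 with doxorubicin (−0.82), while KRT5 had 0.64 and −0.32 and was not called. Of the receptors whose absence defines TNBC, PGR had no read in any vehicle library. It had 8 to 20 reads in each doxorubicin library (0.98 and 0.92, called after either siRNA). ESR1 had means of 92.7, 46.5, 117 and 49.0 normalized reads in the same order of groups. ESR1 fell with doxorubicin, by −0.61 in siNT cells, not called, and by −0.78 in siMLK4 cells, called. ERBB2 mRNA was present at 1459 in siNT vehicle and was not called with doxorubicin. The luminal genes GATA3 (0.57 and 0.14) and FOXA1 (−0.12 and 0.13) were not called with doxorubicin after either siRNA. Fibroblasts are a common source of GREM1 and INHBA. Of 8 fibroblast markers, COL1A2, COL3A1 and DCN were not in the table, and the other 5, led by COL1A1, summed to 522, 358, 821 and 493 normalized reads in the same order of groups, of which COL1A1 alone had 286, 267, 529 and 405. LUM had 138, 21.1, 190 and 16.5, and fell with doxorubicin after either siRNA (−1.56 and −2.05), while PDGFRA had 2.29, 24.7, 2.42 and 33.1, and rose (0.94 and 1.16). THY1 had 80.6, 42.2, 75.4 and 34.0 and PDGFRB 14.1, 2.86, 23.6 and 4.56, and neither was called. Only 2 of 5 leukocyte markers and 1 of 4 endothelial markers were in the table, with mean sums of at most 54.7 and 51.6 in any group. Of these, PTPRC was called higher with doxorubicin in siMLK4 cells (0.84, from a mean of 1.75 to 17.9 normalized reads). In siNT cells it had 0.59 and was not called, and CD14 and VWF were called in no comparison. All libraries came from the same cell line, whose identity the paper checked by short tandem repeat profiling, so these markers were read in HCC1806 cells. The part of these shifts in the results was not tested. In bulk RNA, fewer cells that express a marker and less of its RNA per cell cannot be told apart.

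With doxorubicin in siNT cells, the ligands TGFB2 and BMP4 and the antagonist GREM1 rose, ID2 rose most, and ID1 fell. Of the 10 genes, 4 were called higher and 1 lower (limma on the variance-stabilized log2 values, adjusted p under 0.01 and absolute log2 fold change over 0.75), where 12.1% of all tested genes were called higher and 10.6% lower. After MLK4 knock-down, 3 were called higher and 2 lower, against 12.6% and 10.6% of all genes. Over the 10 genes the log2 fold change had a median of 0.22 in siNT cells and 0.30 in siMLK4 cells, beside 0.00 and 0.02 over all genes.

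**Figure D1:**
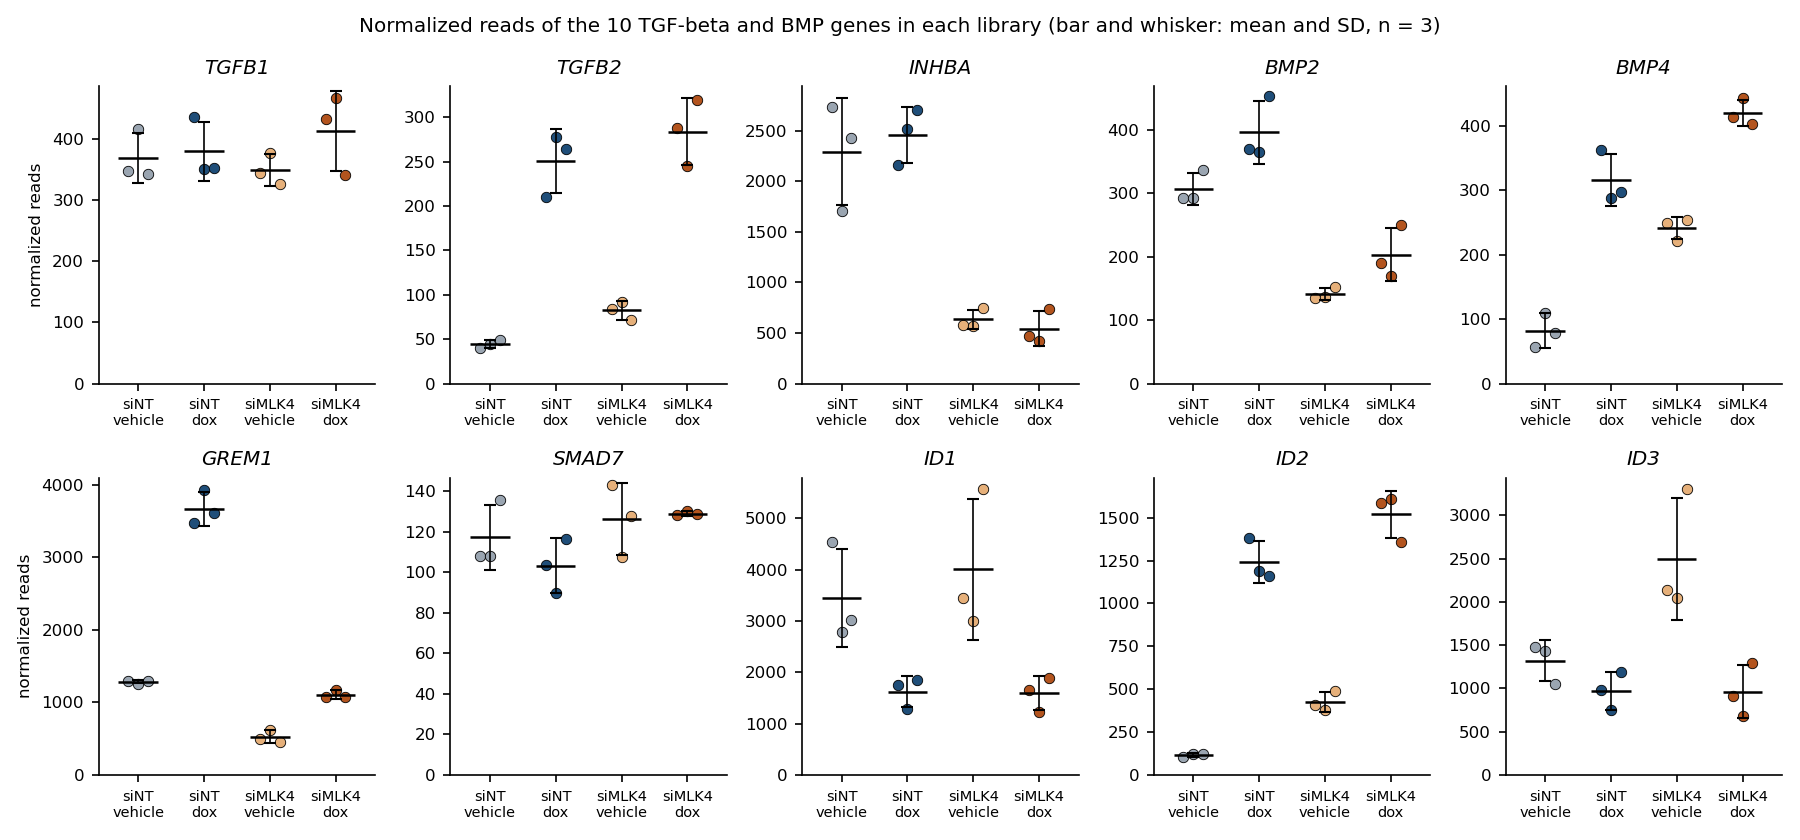
Normalized reads (linear axes from 0) of each gene in the 12 libraries, by group, with points for libraries and bar and whiskers for mean and SD (n = 3). GREM1, INHBA and BMP2 sit lower in siMLK4 libraries, ID2, TGFB2 and BMP4 sit higher with doxorubicin, and TGFB1 and SMAD7 overlap between most groups.

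TGFB2 (ENSG00000092969), a ligand secreted in latent form, is at 218345336 to 218444619 of chromosome 1 (+ strand; GRCh38 here and below). Its libraries held 39.9, 44.6 and 49.4 normalized reads in siNT vehicle and 210.4, 277.9 and 264.6 in siNT doxorubicin. In siMLK4 cells it had 84.2, 91.7 and 71.4 with vehicle and 287.5, 245.2 and 319.4 with doxorubicin. Treated and vehicle libraries did not overlap after either siRNA. The rise was 5.62-fold in siNT cells (log2 fold change 1.73 ± 0.13 SE, adjusted p = 1.5e-07) and 3.45-fold in siMLK4 cells (1.36 ± 0.13, adjusted p = 1.2e-06). Folds are ratios of mean normalized reads, whereas log2 fold changes are differences of variance-stabilized values, which are smaller for genes with few reads. The siMLK4 vehicle libraries also lay above all siNT vehicle libraries, by 1.85-fold, but the difference of 0.53 stayed under the threshold (adjusted p = 0.0073). It passed as log2(normalized reads + 1), with 0.87 (adjusted p = 0.0023), a scale that compresses genes of few reads less. Reads of TGFB2 are uncertain in part, since 21.7% of the 50-base stretches of its transcripts also occur in TGFB2-OT1, which was not in the table.

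TGFB1 (ENSG00000105329, chromosome 19, − strand, 41301587 to 41353922), the most widely expressed ligand of its class, moved in no comparison. Its libraries ranged from 325.4 to 467.0 normalized reads over all 4 groups, and the 3 libraries of each group overlapped those of every group it was compared with. The largest of its 4 log2 fold changes was 0.21 ± 0.13 (doxorubicin in siMLK4 cells, adjusted p = 0.18). A same-strand gene that overlaps TGFB1 was also in the table, so reads from the shared stretch cannot be assigned with certainty.

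INHBA (ENSG00000122641, chromosome 7, − strand, 41667168 to 41705834) encodes the βA subunit of activin A. It had 2738.3, 1710.9 and 2432.7 normalized reads in siNT vehicle and 2162.2, 2516.4 and 2704.0 in siNT doxorubicin. After knock-down the values were 580.1, 573.9 and 747.0 with vehicle and 468.1, 421.1 and 738.5 with doxorubicin. The siMLK4 libraries were below every siNT library, and treated and vehicle libraries overlapped after either siRNA. INHBA fell to 27.6% of siNT with vehicle (log2 fold change −1.76 ± 0.20, adjusted p = 2.7e-05) and to 22.0% with doxorubicin (−2.11 ± 0.20, adjusted p = 8e-06). The difference with doxorubicin was 0.12 ± 0.20 with siNT (adjusted p = 0.62) and −0.23 ± 0.20 with siMLK4 (adjusted p = 0.32), and neither was called.

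BMP2 (ENSG00000125845, chromosome 20, + strand, 6767686 to 6780246) and BMP4 (ENSG00000125378, chromosome 14, − strand, 53949736 to 53958761) are close relatives that signal through the same receptors. BMP2 had 292.4, 292.8 and 336.8 normalized reads in siNT vehicle and 370.1, 365.4 and 453.2 in siNT doxorubicin. After MLK4 knock-down it had 134.3, 136.5 and 152.4 with vehicle and 190.8, 169.3 and 249.5 with doxorubicin. No siMLK4 library reached a siNT library. BMP2 fell to 45.9% of siNT with vehicle (−0.91 ± 0.13, adjusted p = 0.00021) and to 51.3% with doxorubicin (−0.83 ± 0.13, adjusted p = 0.00047). The call with doxorubicin was lost without siNT doxorubicin library 3 (−0.74) or siMLK4 doxorubicin library 2 (−0.73), when the change dropped just under the fold threshold. Its doxorubicin responses of 0.32 and 0.40 were not called, although treated libraries lay above vehicle libraries after either siRNA.

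BMP4 moved the other way. It had 56.4, 110.0 and 78.6 normalized reads in siNT vehicle and 361.8, 287.1 and 297.1 in siNT doxorubicin, a rise of 3.86-fold (1.52 ± 0.14, adjusted p = 1.3e-06). In siMLK4 cells it had 249.5, 221.2 and 253.0 with vehicle and 413.8, 441.9 and 401.9 with doxorubicin. Untreated siMLK4 cells thus held 2.95 times the BMP4 mRNA of untreated siNT cells (1.19 ± 0.14, adjusted p = 5e-05), with no overlap. The ratio of treated to vehicle means in siMLK4 cells was 1.74, without overlap, and its log2 fold change of 0.69 (adjusted p = 0.00098) was under the fold threshold on this scale and above it as log2(normalized reads + 1), at 0.80 (adjusted p = 0.0032). With doxorubicin the 2 siRNA groups did not overlap, but the difference of 0.37 ± 0.14 was not called (adjusted p = 0.079).

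GREM1 (ENSG00000166923, chromosome 15, + strand, 32718004 to 32745106), which binds and blocks BMP2 and BMP4 among others, carried both effects. It had 1302.2, 1259.3 and 1291.0 normalized reads in siNT vehicle and 3477.2, 3927.3 and 3606.4 in siNT doxorubicin. With siMLK4 it had 503.0, 622.8 and 449.7 with vehicle and 1077.8, 1177.4 and 1070.6 with doxorubicin. All 4 groups were separate, and treated siMLK4 cells lay below untreated siNT cells. Doxorubicin raised GREM1 by 2.86-fold in siNT cells (1.48 ± 0.11, adjusted p = 2.1e-07) and by 2.11-fold in siMLK4 cells (1.02 ± 0.11, adjusted p = 4.8e-06). Knock-down lowered it to 40.9% of siNT with vehicle (−1.22 ± 0.11, adjusted p = 5.2e-06) and to 30.2% with doxorubicin (−1.68 ± 0.11, adjusted p = 5.7e-07).

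SMAD7 (ENSG00000101665, chromosome 18, − strand, 48919853 to 48950965), a feedback inhibitor that TGF-β and BMP signals both induce, was called in no comparison. It had 108.0, 108.0 and 135.8 normalized reads in siNT vehicle, 103.4, 89.6 and 116.6 in siNT doxorubicin, 143.3, 107.6 and 127.6 in siMLK4 vehicle and 128.0, 130.1 and 128.8 in siMLK4 doxorubicin. Its largest difference was 0.24 ± 0.12 between the siRNA groups with doxorubicin (adjusted p = 0.17), where the libraries did not overlap.

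The ID genes did not move as a group. ID1 (ENSG00000125968, chromosome 20, + strand, 31605283 to 31606515) had 4543.1, 2783.4 and 3023.2 normalized reads in siNT vehicle and 1749.7, 1284.7 and 1843.2 in siNT doxorubicin. In siMLK4 cells it had 3444.6, 3009.1 and 5581.8 with vehicle and 1659.4, 1236.6 and 1886.2 with doxorubicin. It fell to 47.1% with doxorubicin in siNT cells (−1.04 ± 0.24, adjusted p = 0.0018) and to 39.7% in siMLK4 cells (−1.27 ± 0.24, adjusted p = 0.00038), without overlap. The call in siNT cells was lost without siNT doxorubicin library 2, the lowest of its group (−0.89, adjusted p = 0.012). Between siRNAs the ID1 libraries overlapped, with differences of 0.20 and −0.03 on the log2 scale.

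ID2 (ENSG00000115738, chromosome 2, + strand, 8678845 to 8684461) showed the opposite pattern. It had 103.3, 124.6 and 124.6 normalized reads in siNT vehicle and 1383.3, 1186.9 and 1160.9 in siNT doxorubicin. The siMLK4 libraries held 405.8, 377.6 and 488.7 with vehicle and 1587.4, 1609.3 and 1360.9 with doxorubicin. Doxorubicin raised it 10.6-fold in siNT cells (2.95 ± 0.12, adjusted p = 2.7e-09) and 3.58-fold in siMLK4 cells (1.73 ± 0.12, adjusted p = 1.2e-07). Untreated siMLK4 cells held 3.61 times the ID2 mRNA of untreated siNT cells (1.51 ± 0.12, adjusted p = 1.6e-06). With doxorubicin the siRNA groups overlapped and differed by 0.28 ± 0.12 (adjusted p = 0.11). A gene on the opposite strand, ID2-AS1, was in the table, and the counting was specific to strand.

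ID3 (ENSG00000117318, chromosome 1, − strand, 23557926 to 23559501) had 1480.7, 1428.5 and 1048.5 normalized reads in siNT vehicle and 981.0, 752.3 and 1186.2 in siNT doxorubicin, which overlapped (−0.43 ± 0.23, adjusted p = 0.13). In siMLK4 cells it had 2135.1, 2043.6 and 3306.0 with vehicle and 914.1, 686.3 and 1292.8 with doxorubicin, a fall to 38.7% (−1.33 ± 0.23, adjusted p = 0.00022). The siMLK4 vehicle libraries lay above the siNT vehicle libraries by 1.89-fold (0.87 ± 0.23), at an adjusted p of 0.013 that missed the threshold. This difference was called with library totals, without some single siMLK4 doxorubicin libraries, and with a replicate block, although the numbers did not pair the libraries in this comparison. ID1 and ID3 were both highest in siMLK4 vehicle library 3 and both lowest among their group's libraries in the second library of each doxorubicin group.

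Between siRNA groups the calls fell on the secreted factors and ID2. With vehicle, 2 of the 10 genes were called higher (BMP4 and ID2) and 3 lower (INHBA, BMP2 and GREM1) in siMLK4 cells, where 2.51% of all genes were called higher and 3.14% lower. With doxorubicin none was called higher, here or with limma-voom on the recovered reads, and the same 3 secreted factors were called lower, against 2.66% and 2.93% of all genes. At an unadjusted p under 0.05, 7 of the 10 genes passed with vehicle, beside 37% of all genes. With doxorubicin 5 of the 10 passed, beside 37.1% of all genes. The comparisons share libraries, since the vehicle groups enter both the siRNA and the drug contrasts, and so are not independent of each other.

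**Figure D2:**
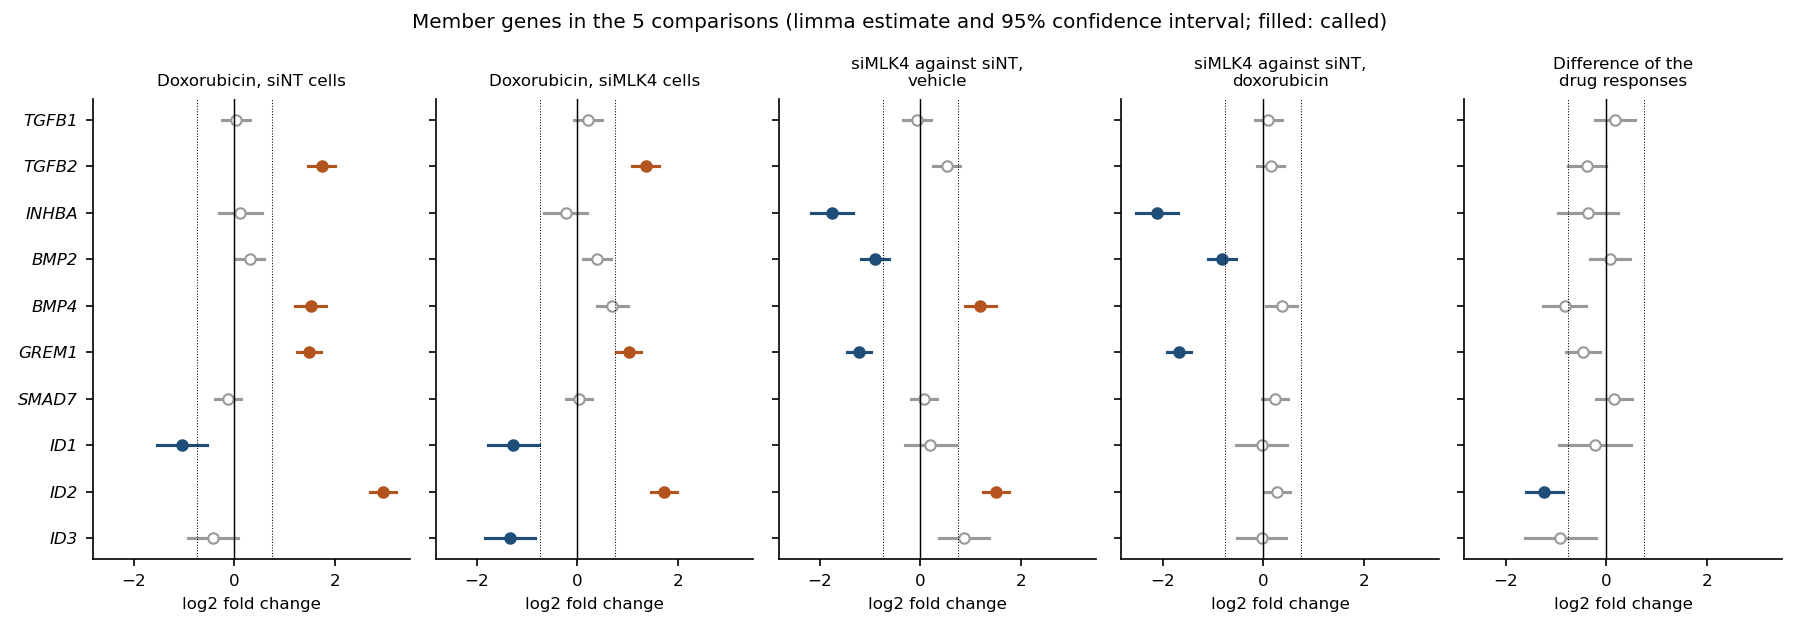
Log2 fold changes (difference of variance-stabilized values) of the 10 genes in 5 comparisons, with limma 95% confidence intervals; filled points are called and dotted lines mark ±0.75. INHBA, BMP2 and GREM1 lie left of the line in both siRNA comparisons, and ID2 is the gene filled in the last panel.

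Whether knock-down changed a drug response was tested as the interaction, the log2 response in siMLK4 cells less that in siNT cells. ID2 was the 1 gene of the 10 called, with −1.23 ± 0.17 (adjusted p = 0.0043), among 0.176% of all genes called lower and 0.0999% called higher. At an unadjusted p under 0.05, 4 of the 10 passed, and 14.5% of all genes did. The smaller ID2 response went with the higher vehicle level in siMLK4 cells, 424 against 117 normalized reads, while the treated levels were 1519 and 1244. The ID2 call was lost without siNT vehicle library 1, any of the 3 siNT doxorubicin libraries, siMLK4 vehicle library 1, or siMLK4 doxorubicin library 1 or 2, with adjusted p between 0.01 and 0.019 and values between −1.15 and −1.27. BMP4 had −0.83 ± 0.20 (adjusted p = 0.066), ID3 −0.91 ± 0.33 (adjusted p = 0.2) and GREM1 −0.46 ± 0.16 (adjusted p = 0.18), none of which was called.

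Levels of different genes were compared per kilobase of the canonical transcript. In siNT vehicle the order began with ID1 at 3510 ± 971 normalized reads per kilobase (SD, n = 3), ID3 at 1389 ± 248, INHBA at 379 ± 87.3 and TGFB1 at 133 ± 14.8. ID2, GREM1 and BMP2 followed at 90.5 ± 9.45, 88.1 ± 1.53 and 86.7 ± 7.20, which did not differ beyond their spread, nor did BMP4 at 42.3 ± 14.0 and SMAD7 at 35.1 ± 4.81. TGFB2 was last at 7.61 ± 0.81. In siMLK4 doxorubicin cells ID1 was at 1622 ± 335, ID2 at 1170 ± 106 and ID3 at 1015 ± 323, with BMP4 next at 217 ± 10.6 ahead of TGFB1 at 149 ± 23.5.

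On canonical transcripts the order of the BMP ligands was exchanged. BMP2 exceeded BMP4 per kilobase in untreated siNT cells, 86.7 against 42.3, and BMP4 exceeded BMP2 in untreated siMLK4 cells, 125 against 39.8. With doxorubicin BMP4 was at 163 against 112 for BMP2 in siNT cells, and at 217 against 57.3 in siMLK4 cells. INHBA, GREM1 and TGFB1 stood at 407, 252 and 136 in siNT doxorubicin and at 89.7, 76.1 and 149 in siMLK4 doxorubicin. These places depend on the transcript chosen, since BMP4 has annotated transcripts of 458 to 1931 bases, the canonical one the longest, and BMP2 has 1. At the annotated length of 4103 bases in place of 14575 the level of GREM1 in siNT vehicle would be 313.

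**Figure D3:**
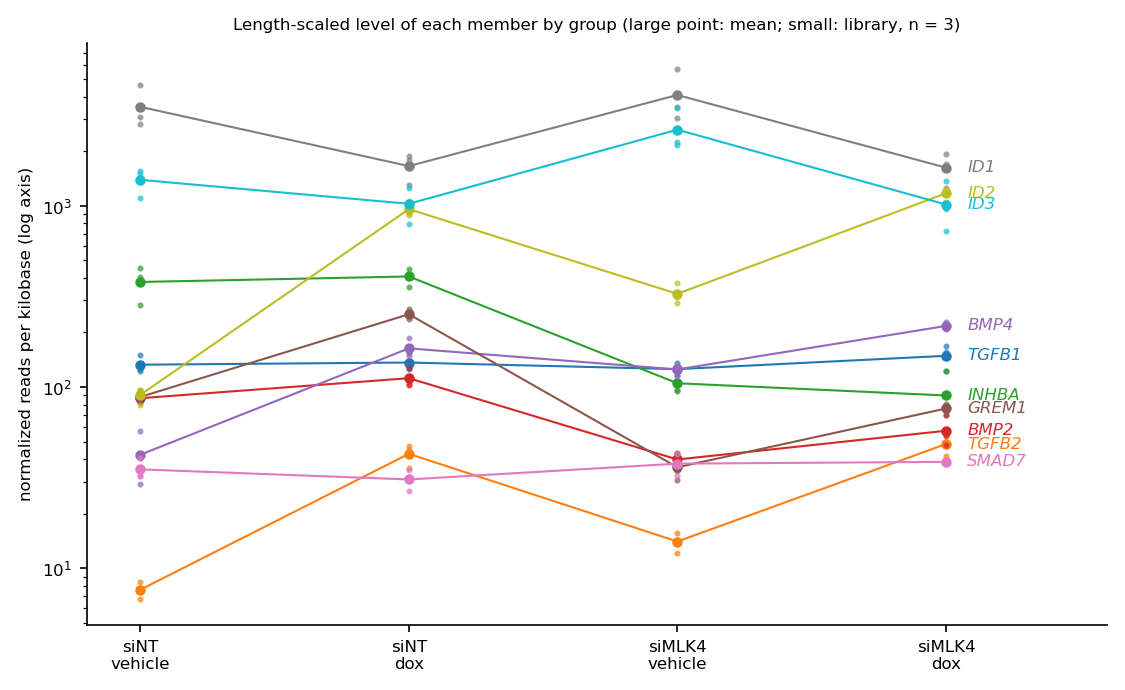
Normalized reads per kilobase (log axis) of the 10 genes in the 4 groups, with large points for means and small points for libraries; lines join the means of a gene. BMP4 and BMP2 exchange places between siNT vehicle and the other groups, and ID2 rises toward ID1 and ID3 with doxorubicin.

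The 7-base seed sites of the siRNAs were sought in the annotated 3′UTRs, since an siRNA is known to lower some transcripts that pair with its seed alone. The members that fell are shown here with the site in capitals and its place in the 3′UTR of the canonical transcript. GREM1 held 8 sites for 3 siRNAs, of which 1 is shown.

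INHBA, siRNA 3, base 242 of 4536: acaggaattggGAGGGAAaggga

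BMP2, siRNA 4, base 979 of 1157: tctttattctcCAAAGAAcccag

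GREM1, siRNA 4, base 2832 of 13861: tctgagttgggCAAAGAAgaagc

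Per kilobase of 3′UTR, GREM1 held 0.577 sites, INHBA 0.220 and BMP2 0.864, and all measured genes together 0.431. Of the members that did not fall, BMP4, which was higher in siMLK4 cells with vehicle, held 3.38 per kilobase, TGFB1 1.37, SMAD7 0.658 and TGFB2 0.307, with 1 site in each, and ID1, ID2 and ID3 held none. Among genes called lower in siMLK4 cells with vehicle, 62.2% held a site, against 42.0% of genes called higher and 43.6% of genes not called, and the median 3′UTR lengths were 1659, 1383 and 1296 bases. Per kilobase of 3′UTR these sets held 0.561, 0.389 and 0.426 sites. With doxorubicin the shares were 63.6%, 41.1% and 43.7%. The median lengths there were 1615, 1290.5 and 1303 bases, with 0.620, 0.407 and 0.425 sites per kilobase. The part of seed pairing in the fall of INHBA, BMP2 and GREM1 was not tested.

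Promoter windows of the secreted factors that rose with doxorubicin in siNT cells are shown because TGFB2, BMP4 and GREM1 moved together there. Each is the 250 bases before a RefSeq start site (GRCh38.p14), with capitals for the SMAD box (CAGAC, or GTCTG on the other strand) and for GGCGCC, a GC element of BMP-responsive genes that reads the same on both strands. The motifs do not overlap each other.

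TGFB2, chr1:218345086-218345335, + strand: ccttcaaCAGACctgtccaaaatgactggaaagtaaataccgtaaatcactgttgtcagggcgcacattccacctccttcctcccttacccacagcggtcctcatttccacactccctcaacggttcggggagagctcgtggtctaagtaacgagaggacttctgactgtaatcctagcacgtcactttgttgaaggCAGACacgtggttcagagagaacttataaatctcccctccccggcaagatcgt

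BMP4, chr14:53955051-53955300, − strand: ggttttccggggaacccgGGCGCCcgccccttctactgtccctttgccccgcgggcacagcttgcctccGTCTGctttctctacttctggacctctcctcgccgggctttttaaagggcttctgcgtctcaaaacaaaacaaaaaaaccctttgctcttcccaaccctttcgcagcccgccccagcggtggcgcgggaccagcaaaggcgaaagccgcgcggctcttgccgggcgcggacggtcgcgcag

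GREM1, chr15:32717754-32718003, + strand: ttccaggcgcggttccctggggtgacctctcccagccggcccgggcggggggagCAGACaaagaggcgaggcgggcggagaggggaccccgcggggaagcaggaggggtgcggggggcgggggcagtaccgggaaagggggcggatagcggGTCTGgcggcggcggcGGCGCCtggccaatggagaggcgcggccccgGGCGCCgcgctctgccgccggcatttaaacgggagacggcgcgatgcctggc

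These TGFB2, BMP4 and GREM1 windows held 2 SMAD boxes, a SMAD box and a GGCGCC, and 2 of each. BMP4 and GREM1 have further start sites, and the window shown is the first listed, which held the most motifs. The other 2 BMP4 windows held none and 1 SMAD box, the second GREM1 window held 1 SMAD box, and none of them a GGCGCC. Of 35116 windows of the same length 38.0% held a SMAD box and 16.4% a GGCGCC. The window of ID3, which fell with doxorubicin in siMLK4 cells, held 1 SMAD box. The 3 windows of SMAD7, which was called in no comparison, held 2, 1 and none. Those of ID1, ID2, INHBA and TGFB1 held none of the motifs searched. Among these, ID2 rose most of the 10 genes with doxorubicin in siNT cells (10.6-fold), ID1 fell, and INHBA and TGFB1 were not called with doxorubicin. The palindrome GTCTAGAC (0.182% of windows), the AP-1 motif TGANTCA (6.57%) and the CRE TGACGTCA (1.65%) were in no window of the 10 genes. The BMP4 window lies within the annotated span of the gene. Genes on the opposite strand overlap the spans of BMP4 (ENSG00000287156) and GREM1 (GREM1-AS1), and their overlap with the windows was not tested. These are matches of letters, and BMP2 is named here without a window.

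The other genes of the pathway were read from a list of 122 genes in 8 roles, of which 94 were in the table, 84 besides the 10 members. Of these 84, doxorubicin raised 16 (19%) and lowered 9 (10.7%) in siNT cells, where 12.1% and 10.6% of all genes were called. It raised 18 (21.4%) and lowered 9 (10.7%) in siMLK4 cells, beside 12.6% and 10.6% of all genes. Their median log2 fold changes were −0.01 and 0.15, beside the 0.00 and 0.02 of all genes. Knock-down raised 4 (4.76%) and lowered 7 (8.33%) with vehicle, beside 2.51% and 3.14% of all genes. With doxorubicin it raised 6 (7.14%) and lowered 8 (9.52%), beside 2.66% and 2.93%, and the medians were −0.02 and 0.00. At an adjusted p under 0.05 with no fold threshold, the shares of the 84 and of all genes were 39.3% and 25.8% with vehicle and 23.8% and 24.8% with doxorubicin. At an unadjusted p under 0.05 they were 50% and 37% with vehicle and 36.9% and 37.1% with doxorubicin. None of the 84 was called in the interaction, here or with limma-voom, and 14 (16.7%) passed at an unadjusted p under 0.05, near the 14.5% of all genes.

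**Figure D4:**
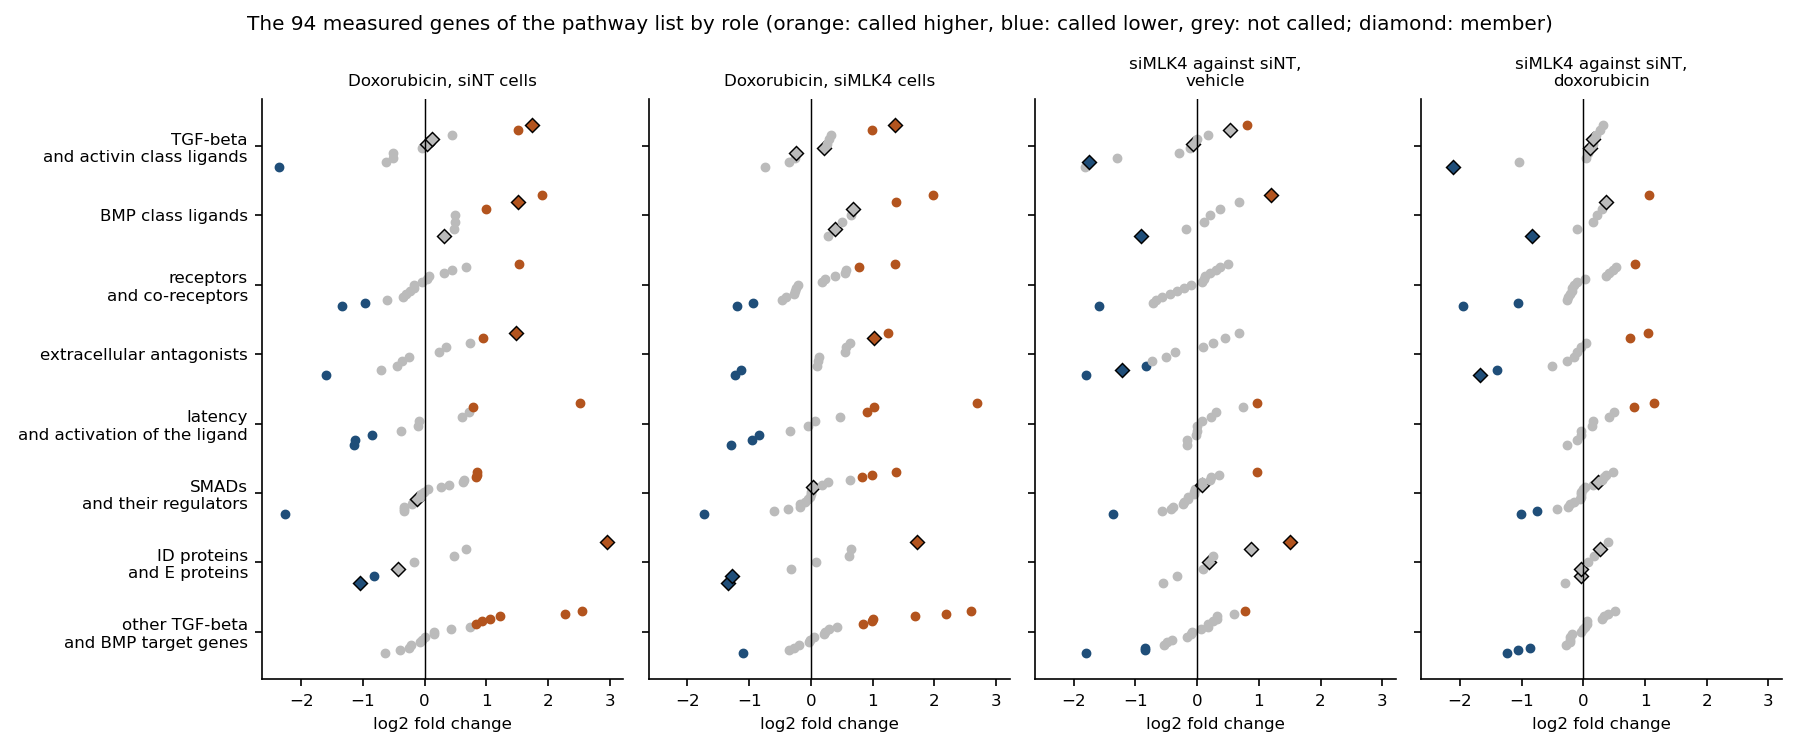
Log2 fold changes of the 94 measured pathway genes in 4 comparisons, by role; orange is called higher, blue called lower, grey not called, and diamonds are the 10 members. The 7 BMP class ligands lie right of 0 with doxorubicin after either siRNA, and each other role spreads to both sides. Of these ligands, BMP6 and BMP8B are called after either siRNA and BMP4 in siNT cells only, and BMP2, BMP7, BMP8A and GDF9 are not called.

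Among ligands, BMP6 rose with doxorubicin from a mean of 127 to 615 normalized reads after siNT (1.91 ± 0.16) and from 108 to 582 after siMLK4 (1.98 ± 0.16), and TGFB3 rose by 1.51 and 0.99 and BMP8B by 1.00 and 1.39 on the log2 scale. Of the 5 BMP class ligands besides BMP2 and BMP4, BMP6 and BMP8B were called after either siRNA. The other 3 had positive values, as did 8559 of all 17013 genes in siNT cells and 8729 in siMLK4 cells, and rest on few reads (BMP7, BMP8A and GDF9 at means of at most 37.6, 38.0 and 18.5 normalized reads in any group). The co-receptor ENG fell (−1.34 and −1.20), as did TGFBR3 (−0.96 and −0.93), and BAMBI, a decoy receptor, rose (1.53 and 1.37). The TGF-β latency protein LTBP1 rose by 2.51 and 2.69, while ITGB6 and ITGB8, subunits of the integrins that release latent TGF-β, fell (−1.14 and −1.12 in siNT cells). SKI, a repressor of SMADs, fell by 2.26 and 1.73 on the log2 scale. Of the other target genes, CCN2 rose by 2.28 and 2.60 and SNAI1 by 2.55 and 2.18.

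With knock-down, ACVR1, a type I receptor for BMPs and activin, and FST, which binds activin, fell with vehicle and with doxorubicin. ACVR1 had 401.6, 338.4 and 400.8 normalized reads in siNT vehicle and 92.2, 110.6 and 83.2 in siMLK4 vehicle (−1.58 ± 0.11, adjusted p = 7.6e-07), and it fell to 16.7% with doxorubicin (−1.94 ± 0.11). FST had 3499.2, 2139.7 and 2496.7 in siNT vehicle and 600.2, 693.5 and 901.6 in siMLK4 vehicle (−1.81 ± 0.17, adjusted p = 5.4e-06), and it fell to 36.8% with doxorubicin. The activin subunit gene INHBA and the activin antagonist FST were therefore both lower, as were the BMP ligand gene BMP2 and the BMP antagonist GREM1. FSTL3, a relative of FST, fell with vehicle (−0.83), and TGFBR2 fell with doxorubicin (−1.05). STRAP, a SMAD7 partner, fell in both (−1.36 and −1.01). LTBP1 rose in both (0.97 and 1.15), and the inhibitory SMAD SMAD6 rose with vehicle, from a mean of 75.8 to 194 normalized reads (0.97 ± 0.13). Of the 13 pathway genes called lower in either siRNA comparison, members included, 9 held a seed site (69.2%), beside 45 of the other 81 (55.6%). ACVR1 and FSTL3 held none.

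By the correlation of log2 values over the 12 libraries, among 12380 genes with a mean of at least 50 normalized reads, the 3 genes most like GREM1 were ZNF718 (r = 0.994), ENSG00000112096 (0.982) and SOX9 (0.981). Those most like ID2 were HCP5 (0.994), FSTL1 (0.991) and EPHX1 (0.989), and like INHBA SLC16A1 (0.986), CDK7 (0.981) and RNF125 (0.981). TGFB2 was followed most closely by FAM161B (0.993), RIGI (0.991) and CABYR (0.988), BMP2 by CLDND1 (0.984), RNF114 (0.981) and MFSD1 (0.972), and BMP4 by TTC30B (0.981), C14orf119 (0.976) and CGN (0.974). For ID1 they were LINC02055 (0.984), RPL31 (0.983) and PGPEP1 (0.983), and for ID3 SULT1A1 (0.982), EFNA4 (0.970) and MTERF2 (0.967). TGFB1 and SMAD7, which hardly varied, had looser neighbours in DLL1 (0.826), SLC4A11 (0.822) and BDH1 (0.805), and in ZNF281 (0.849), PLBD1 (0.831) and SNAP23 (0.828). The libraries fall into 4 treatment groups, so these values describe likeness of the group pattern and carry no test.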

How the data were processed

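HCC1806 mRNA-seq was analysed in 12 libraries, 3 for each of 4 groups taken from the sample labels, and no library was left out. Per the labels and the study's methods, the authors used Trimmomatic 0.39 for trimming, HISAT2 for mapping, duplicate removal, HTSeq 0.6.0 for strand-specific counting per gene and DESeq2 1.26.0. The labels name hg19 and the methods GRCh38, so coordinates here come from GENCODE release 44 on GRCh38 by Ensembl identifier. The deposited values are log2-like: the authors stabilized the variance of scaled reads, so that 0 reads take the value 4.76. This was inverted, which returned whole reads within 0.05 for 100% of values, and size factors of 0.852 to 1.199. No 2 replicates agreed within sampling noise (chi-square per degree of freedom 7.01 to 63.7).

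All genes were tested with limma 3.58.1 in R 4.3.3 (variance trend, 4 group means, 12 libraries), with Benjamini-Hochberg adjustment over 17013 genes, and calls used the study's thresholds, 0.01 for the adjusted p and 0.75 for the absolute log2 fold change. The code was tested on simulated data. The 10 members, the pathway and marker lists and the motifs were chosen with earlier results of these data known. All members are named, with up to 3 called pathway genes per role and direction whose groups do not overlap, and the 3 genes most correlated with each member. Some genes that the rule names are not reported here. Sequences come from RefSeq, GENCODE and the study's supplementary list of siRNAs. Equally numbered libraries deviated together between vehicle and doxorubicin in siNT cells (correlations 0.460, 0.105 and 0.205) and between siRNAs with doxorubicin (0.190, 0.516 and 0.559), a pairing read from the values alone, but not in the other comparisons (lowest −0.723). Alternatives were other scalings, scales, filters and thresholds, fits of only the groups compared, no variance trend, a replicate block, and leaving out each library.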

Additional observations from a re-analysis of the deposited data

Results flagged for a closer look

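ID2 was flagged because its doxorubicin response differed between siMLK4 and siNT cells by a test of the difference itself. The difference was −1.23 on the log2 scale (limma, adjusted p = 0.0043), with a response of 2.95 in siNT cells and 1.73 in siMLK4 cells. ID2 rose in all 3 treated libraries above all 3 vehicle libraries after either siRNA. Its cause was not tested.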

How the results depend on the processing

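Of 990 refits of single fold changes of the 10 genes (50 gene and comparison pairs), 951 kept their direction and their side of the threshold, and 369 of the 379 refits of the 19 called pairs did. All 10 calls lost were lost by leaving out a library: ID1 in siNT cells once, BMP2 with doxorubicin in 2 cases, and the ID2 interaction in 7. With the replicate block, 49 of 50 pairs kept their call. The exception was ID3 between siRNAs with vehicle, called with the block (0.87, adjusted p = 0.0094), a comparison in which the numbers did not pair the libraries, and it was also called without siMLK4 doxorubicin library 2 or 3 and with library totals (1.04). TGFB2 between siRNAs with vehicle was called with library totals (1.01), the trimmed mean of M values (0.86) and log2(normalized reads + 1) (0.87). BMP4 with doxorubicin in siMLK4 cells was called with library totals (0.98), the trimmed mean (0.79), limma-voom (0.80) and log2(normalized reads + 1) (0.80). In the interaction, the count of members called, and that of pathway genes, ranged from 0 to 1 on leaving out libraries. At an adjusted p under 0.05 with no fold threshold, 56 pathway genes in place of 30 passed for doxorubicin in siNT cells, 53 in place of 32 in siMLK4 cells, and 40 in place of 16 between siRNAs with vehicle. These are 59.6%, 56.4% and 42.6% of the list, beside 57.3%, 57.9% and 25.8% of all genes. Between siRNAs with doxorubicin 23 passed in place of 17, 24.5% of the list beside 24.8% of all genes.

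Fits with other scalings used log2(scaled reads + 1), so both scale and scaling differ from the variance-stabilized values, and they are set here beside log2(normalized reads + 1). Against that scale, library totals moved the median of all genes by 0.24 and 0.19 for doxorubicin in siNT and siMLK4 cells, by 0.14 and 0.09 between siRNAs with vehicle and doxorubicin, and by −0.05 in the interaction. For doxorubicin in siNT cells, genes called higher and lower were 2060 and 1799 as reported, 3192 and 2399 as log2(normalized reads + 1), 3085 and 2575 with the trimmed mean and 4198 and 1524 with library totals. In siMLK4 cells they were 2147 and 1802, 3075 and 2459, 3048 and 2495, and 3929 and 1794 in the same order. Between siRNAs they were 427 and 534, 895 and 718, 881 and 741, and 1358 and 483 with vehicle, and 452 and 498, 686 and 695, 725 and 657, and 903 and 548 with doxorubicin. In the interaction they were 17 and 30, 14 and 20, 14 and 14, and 12 and 25. Values of the 10 genes that changed sign were all uncalled and near 0. With library totals these were SMAD7 for doxorubicin in siNT cells (0.0557), TGFB1 between siRNAs with vehicle (0.0641), and ID1 (0.0551) and ID3 (0.0511) between siRNAs with doxorubicin. Leaving out libraries, TGFB1 ranged from −0.0561 to 0.11 and INHBA from −0.0733 to 0.26 for doxorubicin in siNT cells, and SMAD7 from −0.0507 to 0.10 in siMLK4 cells. Between siRNAs with vehicle TGFB1 ranged from −0.12 to 0.0110 and ID1 from −0.0647 to 0.41, and with doxorubicin ID1 from −0.19 to 0.13 and ID3 from −0.26 to 0.18. In the interaction BMP2 ranged from −0.0458 to 0.18 and ID1 from −0.44 to 0.0332. The cause of these shifts was not tested. With 3 libraries per group, differences as small as those of TGFB1 and SMAD7 were not detectable, and TGFB2 and BMP4 in siNT vehicle rest on few reads. Reads carry no molecular identifiers.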

Other observations

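Several pathway genes outside the 10 members changed with doxorubicin (limma, called as above). INHBE, a subunit of another activin, had a mean of 216 normalized reads (SD 170) in siNT vehicle and 5.35 in siNT doxorubicin (−2.36 ± 0.50 on the log2 scale), and its response in siMLK4 cells was not called. Of the antagonists, CHRD, which binds BMPs, rose by 0.94 in siNT cells and 1.25 in siMLK4 cells, SOSTDC1 fell (−1.60 and −1.23), and SOST fell in siMLK4 cells (−1.13). CHRD and SOST rest on few reads, with means of 9.96 normalized reads for CHRD in siNT vehicle and 5.25 for SOST in siMLK4 doxorubicin. FURIN, a protease that cuts ligand precursors, rose by 0.79 and 0.91, LTBP2 rose by 1.03 in siMLK4 cells, and NRROS, which anchors latent TGF-β, fell (−0.84 and −0.96). The receptor ACVR2A rose by 0.78 in siMLK4 cells. Among SMADs and their regulators, SMAD9 rose by 0.84 and 1.37 and SKIL by 0.85 and 0.82, and TGIF2 rose by 0.99 in siMLK4 cells. TCF3, an E protein that ID proteins bind, fell in siNT cells (−0.81). FN1 rose by 1.22 and 1.01 and CDKN1A by 1.06 and 1.69, and SNAI2 fell in siMLK4 cells (−1.09), whereas the related SNAI1 was called higher. None of these was called in the interaction test between the siRNAs.

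Between siRNA groups, TGFB3 (0.80) and COL1A1 (0.78) were higher in siMLK4 cells with vehicle and CDKN1A lower (−0.84). With doxorubicin BMP8B (1.07), SOSTDC1 (1.05), RGMA (0.84), LTBP3 (0.82) and CHRD (0.76) were higher, and SNAI2 (−0.87) and PMEPA1 (−0.76) lower. RGMA, a BMP co-receptor, rested on a mean of 11.5 normalized reads in siNT doxorubicin and 45.9 in siMLK4 doxorubicin.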
